A study of Mus musculus with 2 samples.

Results

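The Kruppel-like factors (KLFs) are transcription factors with a set of zinc fingers at the C-terminal end. Measured here were 10 members of the family: Klf2, Klf3, Klf4, Klf5, Klf6, Klf7, Klf9, Klf10, Klf13 and Klf15. They were found as all array probe sets whose annotation names only 1 of these genes, which gave 34 probe sets of 45037 and 10 genes of 18193. The RNA came from primary osteoblasts, the bone-forming cells, of the skull caps of 5-day-old C57BL/6 mice. One culture spent 6 h in serum-free a-MEM with 4 mM phosphate at pH 7.2, brought there with buffered sodium phosphate, so that sodium was added too. The control culture spent 6 h in serum-free a-MEM with its usual 1 mM phosphate at the same pH, and both cultures had been kept without serum overnight. Each condition was 1 array, so there is no replicate error, no test between the conditions is possible and every difference describes these 2 arrays.

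All KLFs bind GC-rich or CACCC-type DNA through 3 closely related zinc fingers, and they differ in the rest of the protein, which recruits activators or repressors. Several are switched on quickly by growth factors, cytokines or hormones, and others keep a steady level that goes with a differentiated or resting state. Klf10, also called TIEG, was first described as an early gene induced by TGF-beta in osteoblasts, and Klf4 and Klf5 are known from stem cells, epithelia and vascular muscle.

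The annotated start regions of the higher and the level members are shown first, since KLF proteins and the factors of the early response both act on such DNA. The RefSeq table (GRCm38.p6) held a promoter for 8 of the 10 genes, Klf5 and Klf10 being the others. Of each, the 250 bases before the start were read. Printed are Klf6, Klf9 and Klf13, whose signals were higher in 4 mM phosphate on every measured probe set, and Klf4, whose signals were nearly equal. They lie at chr13:5861239-5861488 (Klf6, plus strand), chr19:23140976-23141225 (Klf9, plus strand), chr7:63938916-63939165 (Klf13, minus strand) and chr4:55532476-55532725 (Klf4, minus strand). Capitals mark the letters CACCC, the GC box GGGCGG, the letters TGACG (the core of a cAMP response element) and TGANTCA (an AP-1 type site) on either strand.
Klf6: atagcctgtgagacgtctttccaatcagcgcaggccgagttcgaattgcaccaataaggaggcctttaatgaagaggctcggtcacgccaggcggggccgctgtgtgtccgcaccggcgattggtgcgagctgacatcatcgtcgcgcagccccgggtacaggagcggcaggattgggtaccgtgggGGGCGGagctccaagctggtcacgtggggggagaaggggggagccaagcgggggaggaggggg
Klf9: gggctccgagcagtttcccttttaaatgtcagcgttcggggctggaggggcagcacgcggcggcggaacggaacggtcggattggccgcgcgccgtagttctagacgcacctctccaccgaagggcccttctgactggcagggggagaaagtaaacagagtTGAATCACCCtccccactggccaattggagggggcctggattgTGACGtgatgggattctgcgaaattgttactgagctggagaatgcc
Klf13: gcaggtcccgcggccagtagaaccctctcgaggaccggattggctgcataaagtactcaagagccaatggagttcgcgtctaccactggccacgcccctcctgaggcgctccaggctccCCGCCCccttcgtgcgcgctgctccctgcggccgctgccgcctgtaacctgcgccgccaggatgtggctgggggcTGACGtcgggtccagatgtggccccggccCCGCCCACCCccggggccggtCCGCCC
Klf4: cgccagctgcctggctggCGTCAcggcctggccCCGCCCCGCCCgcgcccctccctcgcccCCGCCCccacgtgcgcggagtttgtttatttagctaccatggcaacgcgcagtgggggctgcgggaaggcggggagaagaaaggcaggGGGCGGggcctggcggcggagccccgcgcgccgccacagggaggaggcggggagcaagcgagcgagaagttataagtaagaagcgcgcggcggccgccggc

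In these windows CACCC was present in 6 of the 8 members, against 52% of 32851 promoters of the same length in the table. GGGCGG was present in 7 of 8, Klf9 being the one without it, against 32.7% of all. The 8 windows had a GC content of 59.2% to 78.4%, against a median of 52.4% over all promoters. TGACG was present in 5 of 8, against 17.8%, and those 5 were the windows of Klf2, Klf4, Klf9, Klf13 and Klf15. Members higher, level and lower in phosphate were therefore all among them. TGANTCA was present in 1 of 8, Klf9, against 6.75%, at 89 to 83 bases before the start, where it overlaps a CACCC. In Klf13 a CACCC shares 1 base with the GC box before it. No member held a CArG box, the site of serum response factor, which 1.47% of all promoters held. These are matches of letters in a short window and not measured binding.

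The deposited values are MAS5 signals, linear intensities that were scaled on each array to the same average. A signal under 21.5, the pooled median of both arrays, was raised to it before log2 ratios were taken as phosphate minus control. Where a gene had several probe sets, the one with the highest mean log2 signal stood for it. All 10 KLF genes were above this floor on at least 1 array, and 9 were above it on both. Of the 34 probe sets 26 were above it on both arrays, 1 on the control array only and 7 on neither. Probe sets of 1 gene, both above the floor, differed from each other in log2 ratio with an SD of 0.42 where the dimmer signal was under 100, 0.26 from 100 to 400 and 0.16 above 400. This SD is technical and says nothing of how cultures differ. Signals of different genes are not set against each other, since probe sets differ in how strongly they bind.

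**Figure D1:**
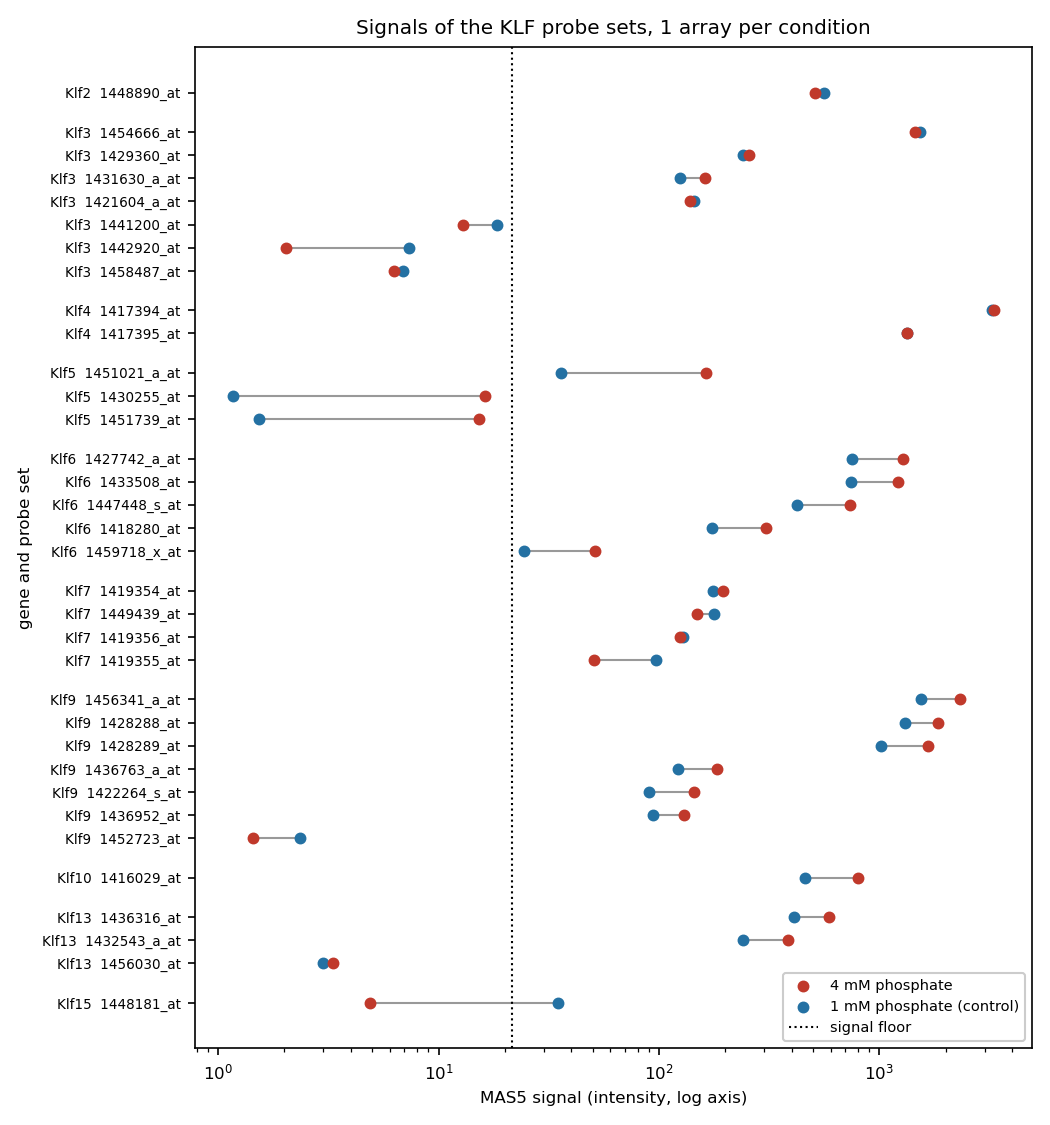
MAS5 signal (log axis) of each of the 34 KLF probe sets, with 1 red point for the 4 mM phosphate array, 1 blue point for the 1 mM control array, and a grey line joining them; the dotted line is the floor of 21.5. The red point lies to the right for the 5 probe sets of Klf6, the 6 measured ones of Klf9, the 2 measured ones of Klf13 and the single one of Klf10, while the points nearly coincide for Klf2 and Klf4.

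The family did not move as 1 block. Klf5, Klf6, Klf9, Klf10 and Klf13 had log2 ratios above 0.5, Klf2, Klf3, Klf4 and Klf7 lay within 0.2 of 0, and Klf15 was lower. These 2 limits were chosen after the values were seen. Over all 12241 measured genes 9.2% had a log2 ratio above 0.5 and 40.1% lay within 0.2, so the second group of members is as frequent as among all genes. At least 2-fold higher was 1 of 10 members, Klf5, against 2.28% of all genes, and at least 2-fold lower was 0 of 10, against 2.92%. At least 1.5-fold higher were 3 of 10, against 7.25%, at least 1.5-fold lower was 1 of 10, against 12.1%, and within 1.5-fold were 6 of 10, against 80.6%. The median log2 ratio of the 10 members was 0.34, against −0.06 over all genes.

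Klf5, which promotes proliferation and remodelling in epithelia and vascular muscle, showed the largest ratio of the family. Its measured probe set (1451021_a_at) had a signal of 163 in 4 mM phosphate, against 36.0 in the control, which is 4.53-fold higher (log2 ratio 2.18). Only 0.36% of measured genes had a higher ratio. Klf5 was dim in the control, and at such signals ratios scatter most. Of genes that both arrays measured with a dimmer signal under 100, 3.85% were at least 2-fold higher, against 0.969% of those with a dimmer signal above 400. The other 2 Klf5 probe sets were under the floor on both arrays, with signals of 16.2 and 15.2 in phosphate and of 1.17 and 1.52 in the control, and give no ratio. The Klf5 difference thus rests on 1 probe set.

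The genes most like Klf5 in their pair of signals, by distance on the log2 scale over the 2 arrays, were Csrnp1, which encodes a nuclear protein induced by several signals, Prss46, a serine protease gene, and Gcnt2, the gene of a glycan-branching enzyme. Csrnp1 had signals of 168 in phosphate and 34.9 in the control, with a log2 ratio of 2.27. Prss46 and Gcnt2 had log2 ratios of 2.33 and 2.27. With 2 arrays such likeness says no more than that both signals are similar.

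Klf6, a widely expressed factor induced in injured tissue, was higher on all 5 of its probe sets. The brightest had a signal of 1277 in 4 mM phosphate and 751 in the control (1.70-fold higher, log2 ratio 0.77). The next had 1209 in phosphate and 746 in the control, with a log2 ratio of 0.70. The 3 dimmer sets gave 0.81, 0.82 and 1.07. The last of these, 1459718_x_at, was close to the floor, with a signal of 51.5 in phosphate and 24.4 in the control, and its suffix marks probes that can bind other transcripts. It was made from the same source sequence as 1447448_s_at, so these 2 sets are not independent. All 5 were at least 1.62-fold higher. In comparison, every set reached 1.5-fold in the higher direction for 3.15% of the 4954 genes with several sets measured on both arrays.

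Klf10, the TGF-beta inducible member, is on the array with 1 probe set. Its signal was 796 in phosphate and 458 in the control, 1.74-fold higher with a log2 ratio of 0.80. Of all measured genes 3.95% had a higher ratio, and of genes with a dimmer signal above 400 3.9% were at least 1.5-fold higher. No second probe set was there to repeat it.

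Klf9, which glucocorticoids and thyroid hormone induce in many tissues, was higher on all 6 of its measured probe sets. The brightest had a signal of 2309 in phosphate and 1544 in the control (log2 ratio 0.58, just under 1.5-fold). The others had log2 ratios between 0.46 and 0.71. A seventh set was at background, with 1.44 in phosphate and 2.36 in the control. Of 240 genes with 5 or more sets measured on both arrays, 19.2% had all of them higher. Part of the repetition is shared source, since the sets 1428288_at and 1428289_at come from 1 sequence. The set at background, 1452723_at, comes from that sequence too.

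Klf13, an activator of the chemokine gene Ccl5 in T cells, was higher on both of its measured probe sets. The brighter had 592 in phosphate and 410 in the control (1.44-fold higher, log2 ratio 0.53). The other had 384 in phosphate and 240 in the control, with a log2 ratio of 0.68. Agreement of this kind was common, since 27.3% of the genes with several sets measured on both arrays had all of them higher. The remaining Klf13 set was at background with 3.31 in phosphate and 2.99 in the control.

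**Figure D2:**
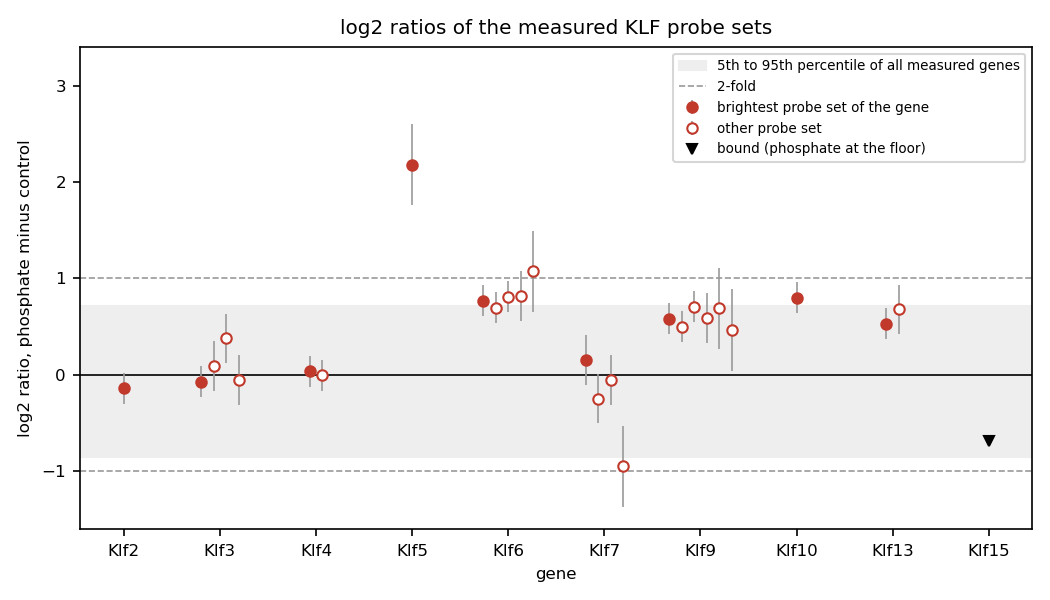
log2 ratio (phosphate minus control) of each of the 27 measured KLF probe sets, filled for the brightest set of a gene and open for the others; grey bars are the technical SD between probe sets of 1 gene at that signal, and the grey band runs from the 5th to the 95th percentile of all measured genes (−0.85 to 0.71). Klf5 lies at 2.18, the sets of Klf6, Klf9 and Klf13 all lie above 0, the sets of Klf7 spread from −0.95 to 0.15, and the triangle for Klf15 is a bound.

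Of the level members, Klf4, a pluripotency factor that also restrains proliferation in differentiated cells, was the most even. Its brighter probe set had a signal of 3309 in 4 mM phosphate and 3229 in the control (log2 ratio 0.04), and the other had 1327 in phosphate and 1330 in the control (log2 ratio −0.002). Both sets come from 1 source sequence and were far above the floor. Klf2, which keeps endothelial cells and T cells in a resting state, had a signal of 511 in phosphate and 563 in the control, with a log2 ratio of −0.14 on its single set. Its ratio differed from 0 by less than the technical SD of 0.16. The genes nearest to it in both signals were Dcaf11, Rab11b and Pitrm1, with log2 ratios of −0.13, −0.13 and −0.14.

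Klf3, a repressor that works through the co-repressor CtBP, had a brightest signal of 1451 in phosphate and 1523 in the control (log2 ratio −0.07). Its other measured sets gave 0.09, 0.38 and −0.05, so 2 of 4 pointed each way. The set at 0.38 had 162 in phosphate and 125 in the control. A further 3 Klf3 sets were under the floor on both arrays, with signals of 2.03 to 13.0 in phosphate and 6.88 to 18.4 in the control.

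Klf7, a factor known from neurons and from the restraint of fat cell formation, gave probe sets that disagreed. The brightest had 196 in phosphate and 176 in the control (log2 ratio 0.15). Of the others, 2 gave −0.25 and −0.05, and 1419355_at, the dimmest, gave −0.95 with 50.5 in phosphate and 97.4 in the control. All 4 come from the same source sequence, and 3 of the 4 pointed down. The median of the 4 sets, −0.15, had the opposite sign to the brightest, so no direction is given for Klf7.

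Klf15, a regulator of glucose and amino acid use that glucocorticoids induce and that promotes fat cell formation, was the member with the lowest ratio. Its only probe set had a signal of 4.87 in 4 mM phosphate, under the floor, and of 34.6 in the control. With the phosphate value raised to the floor this makes it at least 1.61-fold lower. The control signal was itself close to the floor, and the size of the difference depends on where the floor is set.

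The direction of a ratio between the 2 arrays also depends on their scaling. The 24 probe sets of the poly-A spikes, bacterial RNAs that are added before labelling, gave more signal in the phosphate sample, with a median log2 ratio of 0.46, and 18 sets of hybridisation spikes had a median of 0.23. With the poly-A spikes set equal, the median of all genes became −0.51, and Klf5, Klf6, Klf10, Klf9 and Klf13 had log2 ratios of 1.72, 0.30, 0.33, 0.12 and 0.07. Klf2, Klf3, Klf4 and Klf7 then had −0.60, −0.53, −0.43 and −0.31. The member median, −0.12 with the poly-A spikes, stayed 0.38 above the median of all genes, against 0.40 with the deposited scaling. Setting the spikes equal shifts all members alike and leaves their order in place, apart from the bound for Klf15. The shift of −0.46 applies in the same way to the gene lists that follow.

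**Figure D3:**
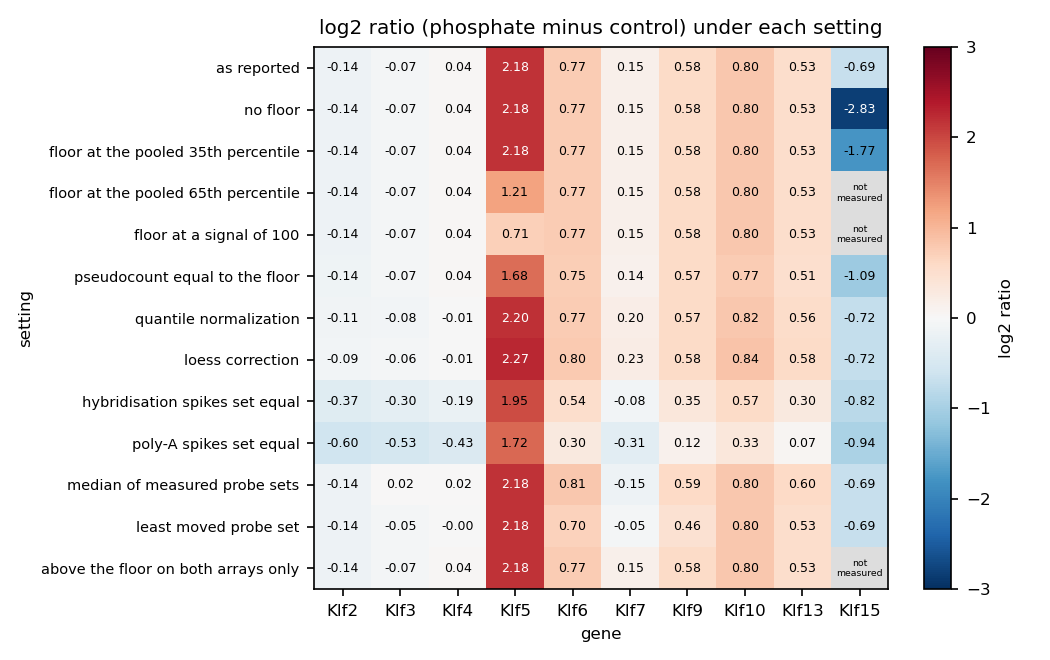
log2 ratio (phosphate minus control) of each KLF gene in columns under the deposited scaling and each of the 12 other settings in rows, red for higher and blue for lower in 4 mM phosphate; grey cells had no measured value, Klf15 is a bound wherever a floor was used above its phosphate signal, and Klf5 is one with the 2 higher floors. Klf5, Klf6, Klf9, Klf10 and Klf13 stay above 0 in every row, while Klf3, Klf4 and Klf7 change sign between rows.

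Other genes of the KLF family had log2 ratios between −0.63 and 0.26. Of 7 listed genes 5 were measured and 0 were 2-fold different, against 2.28% higher and 2.92% lower over all genes. The median of the 5 was −0.23, against −0.06 over all genes. Klf12, a repressor, had a signal of 236 in phosphate and 365 in the control (log2 ratio −0.63), with −0.63 and 0.22 on its other measured sets. Klf11, Klf14 and Klf16 had log2 ratios of −0.25, −0.23 and 0.26, Klf14 from signals just above the floor. Klf17 was above the floor on the phosphate array only, by a small margin, with 21.8 in phosphate and 13.6 in the control. Klf1, the erythroid member, was under the floor on both arrays, with 16.5 in phosphate and 19.8 in the control, and Klf8 was not analysed here.

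SP factors share the zinc fingers and the GC box with the KLFs. Of 9 listed genes 4 were measured and all 4 lay within 1.5-fold, against 80.6% of all genes, with a median of 0.10. Sp1 and Sp3, which are expressed nearly everywhere, had log2 ratios of 0.02 and 0.17, and Sp4 had 0.23. Other Sp1 sets gave 0.01 and, above the floor on the control array only, −0.44. The other Sp4 set gave −0.05. Sp7 (osterix), which osteoblasts need to form, had a signal of 1223 in phosphate and 1600 in the control, a log2 ratio of −0.39. Sp5, Sp6 and Sp8 were under the floor on both arrays.

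Genes that act with or on KLF proteins were compared next, and their counts were of the size that the shares over all genes give. Of 14 co-regulators and ubiquitin ligases 0 were 2-fold different, against 2.28% higher and 2.92% lower over all genes. Within 1.5-fold lay 13 of 14, against 80.6%, and the median was −0.06. The highest were Ctbp2, a co-repressor of Klf3, at 0.42 and the acetyltransferase gene Crebbp at 0.24, with −0.43 on its lowest set. The lowest were Fbxw7, part of a ligase that marks Klf5 for breakdown, at −0.38 and the ligase gene Smurf1 at −0.93, from a dim pair of 40.1 in phosphate and 76.6 in the control. The kinases and MEF2 factors that raise Klf2 and Klf4 in endothelium gave 0 of 7 genes 2-fold different by their brightest probe set and a median of 0.01. Map3k3 and Map3k2 were highest at 0.28 and 0.11, and Mef2a and Mapk7, the gene of the kinase ERK5, lowest at −0.32 and −0.75. Probe sets disagreed for 6 of the 7, Mapk7 having only 1. Mef2d, at 0.01 on its brightest set, had a dimmer one at 1.99, and another set of Map3k2 gave 0.73. The measured sets ran from −0.40 to 0.39 for Map3k3, from −0.62 to 0.05 for Mef2a, from −0.80 to 0.01 for Mef2c and from −0.47 to 0.04 for Map2k5.

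Signals that are known to induce single KLFs were compared through lists of other genes tied to them, not all of them induced genes. The TGF-beta list also holds the pathway's own ligand, receptors and transducing SMADs, and the glucocorticoid list holds the receptor gene Nr3c1. Of 12 measured genes of the TGF-beta list, the signal that induces Klf10, 2 had at least 2-fold more signal in phosphate and 0 had 2-fold less. These counts go by the brightest probe set, and the median was 0.40. Over all genes 2.28% were at least 2-fold higher and 2.92% lower, with a median of −0.06. Tgif1, a repressor of SMAD signalling, and the matrix gene Tgfbi were highest at 1.62 and 1.45. Tgfbr2 and Smad6, a receptor and an inhibitory SMAD, were lowest at −0.30 and −0.61, with 0.57 on a dimmer set of Tgfbr2. Smad2, at 0.05 on its brightest set, had a dimmer one at −1.27, and a dimmer set of Skil gave 1.12. Glucocorticoids induce Klf9 and Klf15. Of the 13 genes of their list 4 reached 2-fold in the higher direction by the brightest probe set, against 2.28% of all genes. In the lower direction it was 0, against 2.92%. The median was 0.48, with 9 of the 13 above 0 and 4 below. Of all genes 40.3% had a log2 ratio above 0.04, and their median was −0.06. The phosphatase gene Dusp1 and the kinase gene Sgk1 were highest at 2.21 and 2.17, and Zbtb16 and Tsc22d3 (GILZ) were lowest at −0.55 and −0.85, although a dimmer set of Tsc22d3 gave 0.17 and one of Zbtb16, at the edge of the floor, −0.04. The rest of the list went both ways. Fkbp5, Ddit4, Per1, Pdk4, Nfkbia, Angptl4 and Cebpd had log2 ratios of 0.39, 0.40, 0.48, 0.58, 0.86, 1.28 and 1.63. The other set of Angptl4 gave 0.56 and that of Cebpd 0.89, both under 2-fold, while the sets of Nfkbia ran from 0.86 to 1.37. Glul and Nr3c1 had −0.32 and −0.25, with every measured set of both genes below 0. Klf9 and Klf15, which share this inducer, pointed opposite ways, Klf15 as a bound close to the floor. Whether any of these signals acted here was not tested.

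Several KLFs are often counted with the early response factors, whose ratios were larger. By the brightest probe set 13 of 18 measured early response factors were higher by 2-fold or more, against 2.28% of all genes and 1 of 10 KLFs. Lower by as much were 0, against 2.92% of all genes. The median was 2.10, against 0.34 for the KLFs. Nr4a2, counted among the 13 at 1.70, had 6 measured sets that ran from −0.58 to 1.73. Fosl1, an AP-1 subunit, had a signal of 312 in phosphate and 16.2, under the floor, in the control, so its log2 ratio of 3.86 is a lower bound, as is 1.21 on its other set. Nr4a3, an orphan receptor gene, was at 3.74. Jund and Srf were lowest at 0.11 and −0.07. Klf5 was the one KLF with a ratio above the early response median of 2.10, and Klf6 and Klf10 were below it at 0.77 and 0.80.

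Genes reported as KLF targets in other cells were near the background shares of all genes in their counts by fold. Of 13 measured, 10 had log2 ratios above 0 and 3 below, and the median was 0.14. Over all genes the median was −0.06, and 40.3% had a log2 ratio above 0.04. Within 1.5-fold lay 10 of 13, against 80.6% of all genes. By the brightest probe set 0 were 2-fold different, against 2.28% higher and 2.92% lower. The highest were Plau, the urokinase gene that Klf6 activates, at 0.95 from signals of 104 in phosphate and 53.6 in the control, and Smad7, which Klf10 represses, at 0.70 with −0.04 on its other probe set. Ccl5, the target of Klf13, was at 0.53, with 104 in phosphate and 71.7 in the control. Slc2a4, the glucose transporter gene activated by Klf15, and the cyclin D1 gene Ccnd1 were lowest at −0.32 and −0.85. Smad7 and Tgfbr1 also stand in the TGF-beta list, together with Smad2. Smad2 had 0.05 on its brightest set and −1.27 on the other.

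**Figure D4:**
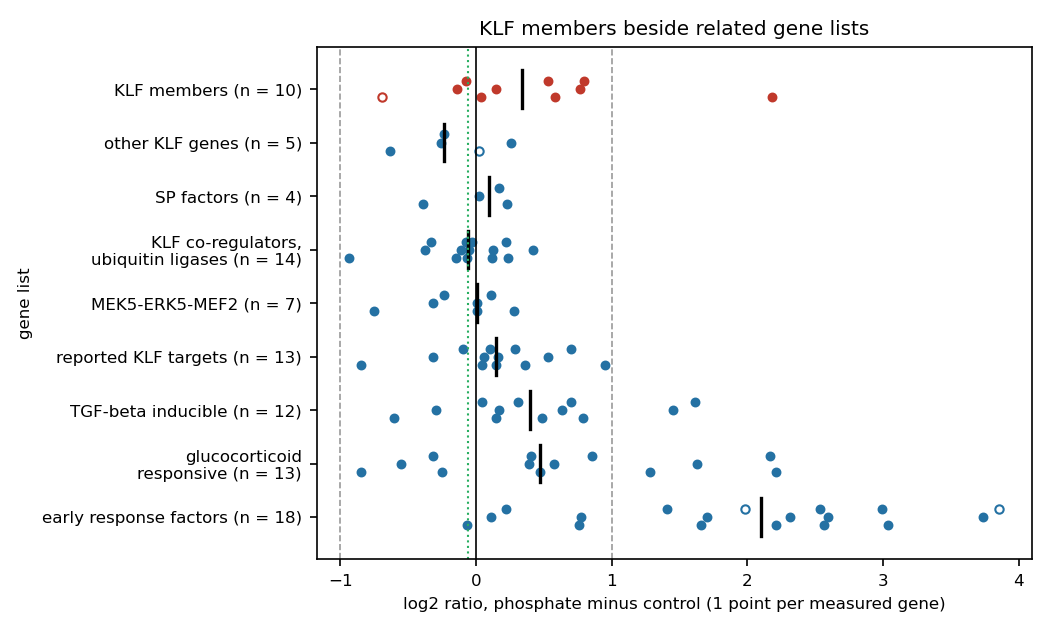
log2 ratio (phosphate minus control) of every measured gene in each list, 1 point per gene, with the KLF members in red, open points for bounds, black bars for list medians, dashed lines at 2-fold and a green dotted line at the median of all genes (−0.06). The KLF median of 0.34 lies beside those of the TGF-beta (0.40) and glucocorticoid (0.48) lists and far below that of the early response factors (2.10).

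The cultures carried the markers of their label. All 7 osteoblast markers with a usable probe set were measured, with summed signals of 70509 in phosphate and 56477 in the control, and 4 were higher and 3 lower in phosphate. Dmp1, a matrix protein gene of maturing osteoblasts and osteocytes, accounted for most of the difference in the sums, with 15708 in phosphate and 5505 in the control (log2 ratio 1.51). The collagen genes Col1a1 and Col1a2 and the matrix gene Ibsp had log2 ratios of 0.23, 0.21 and 0.11, and Sp7, Pth1r and Alpl had −0.39, −0.24 and −0.19. Macrophage markers were also present, 6 of 7, with summed signals of 10215 in phosphate and 10879 in the control. Of the 6, 5 were lower in phosphate, while Cd14 was higher at 1.21. Lower ratios were common, with a median of −0.06 over all genes. Among the 5 lower markers, Lyz2 was nearly level at −0.03, and Csf1r, at −0.56, had another set at 0.15. Of the adipocyte markers, which bear on Klf15, 4 of 4 with a probe set were measured and all 4 were lower in phosphate. Of all genes 48.6% had a log2 ratio below −0.07. The summed signals of the 4 markers were 3324 in phosphate and 4096 in the control. Adipoq, Lpl and Fabp4 had log2 ratios of −0.51, −0.37 and −0.08, the last within the technical SD of 0.16. Pparg, a master regulator of fat cells, had 23.0 in phosphate, close to the floor of 21.5, and 76.0 in the control, a log2 ratio of −1.73. Epithelial markers, which bear on Klf4 and Klf5, were dim, 5 of 5 above the floor on at least 1 array with summed signals of 246 in phosphate and 244 in the control. Their members differed in direction, with 31.6 in phosphate and 63.3 in the control for Cdh1 (just over 2-fold lower) and 75.2 in phosphate and 40.1 in the control for Krt18 (log2 ratio 0.91). Of 6 skeletal muscle markers 3 were measured, with summed signals of 73.3 in phosphate and 93.9 in the control. None of the 7 endothelial markers (Pecam1, Cdh5, Kdr, Tie1, Tek, Emcn and Vwf) was above the floor on either array, although Klf2 was, and neither was any erythroid or lymphoid marker with a probe set. In RNA from whole cultures, fewer cells of a type and less RNA per cell cannot be told apart, and the part of the macrophage, adipocyte and epithelial markers in the KLF values was not tested.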

How the data were processed

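Primary osteoblast RNA from 1 culture in 4 mM phosphate and 1 in 1 mM phosphate was labelled from 100 ng each and hybridised to Affymetrix arrays, as the labels' protocols state. The authors deposited linear intensity values, 1 per probe set, made with MAS5 in GCOS 1.4, per the submitters' processing notes. This algorithm subtracts background and scales each array by 1 factor, and the mean without the lowest and highest 2% was 200.00 on both arrays. Such scaling hides a change of total mRNA. Detection calls and protein sequences were not used here. Arrays have no read depth, and their number limits the precision.

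Of 45101 probe sets 64 were controls. The annotation named 1 gene for 34945 of the rest, several for 932 and none for 9160. The Entrez identifiers of 34741 were found in the RefSeq table of GRCm38.p6, and 0 symbols changed. The floor, log2 ratios and gene values were calculated with Python 3.11.15, NumPy 2.4.6 and pandas 2.3.3, and loess with statsmodels 0.14.6. The floor was taken anew after each rescaling. The calculation was tested on simulated data.

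Members and gene lists were chosen with earlier results of these data known. Named were all 10 members, all measured KLF and SP genes, the 2 highest and 2 lowest of the other lists, the 3 nearest genes of the members with the highest and lowest ratio above the floor on both arrays, and cell type markers. Ccl5, Fkbp5, Per1, Pdk4, Cebpd, Ddit4, Nfkbia, Angptl4, Glul, Nr3c1, Skil, Smad2, Mef2d, Mef2c, Map2k5 and Nr4a2 were named after their values were seen. Genes were counted by size of ratio, and no test was run. Alternatives were other floors, no floor, a pseudocount, 4 scalings and other choices of probe set.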

Additional observations from a re-analysis of the deposited data

How the results depend on the processing

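Of 117 log2 ratios of KLF genes under 12 alternatives, 95 moved by less than the technical SD of the probe set and 22 by more. Klf5, Klf6, Klf9, Klf10 and Klf13 were above 0 in all 12, Klf2 was below 0 in all 12, and Klf15 was below 0 in the 9 that measured it. Klf3 was below 0 in 11 of 12, Klf4 in 5 and Klf7 in 4. The number of members at least 2-fold higher was 0 in place of 1 with the floor at a signal of 100, where Klf5 had 0.71, and Klf5 had 1.21 with the 65th percentile as the floor, both as lower bounds. The number at least 2-fold lower was 1 in place of 0, Klf15, without a floor (−2.83), at the 35th percentile (−1.77) and with a pseudocount equal to the floor. The member median of 0.34 became 0.53 where Klf15 was not measured, which was with the 65th percentile or 100 as the floor, or with genes measured on both arrays only. It was 0.11 with the hybridisation spikes set equal and −0.12 with the poly-A spikes set equal. Over all genes, 11.7% were at least 2-fold higher and 10.1% lower without a floor, and 1.07% and 13.4% with the poly-A spikes set equal. Quantile normalization and the loess correction changed no member by more than its technical SD. No paired analysis was possible because each condition had 1 array, and for the same reason no sample could be left out.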
